A study of Mus musculus with 12 samples.

Results

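A set of 10 genes of the pancreatic islet and of hormone-producing gut cells were followed in whole mouse fetal liver: Pyy, Ins1, Ins2, Gcg, Iapp, Sst, Ppy, Chga, Chgb and Neurod1. All 10 were found by symbol among the 30743 gene rows of the deposited table. The list was selected on earlier results of the same data, namely the authors' comparison of the diets, whose fold changes and p-values are not used here. Livers came from male C57BL/6J fetuses at 15 ± 0.5 days post coitum (dpc), with 6 fetuses in each group. Control dams ate a diet with 13.5% of its energy as fat, and the dams of the high-fat diet (HFD) group ate a diet with 60%, each for 12 to 14 weeks. The labels do not state which fetuses shared a dam. The study asked how an obese mother and her HFD change gene expression in the fetal liver. What is described below is 1 average per gene over both diets and all 12 livers, so no value has a spread between livers and the diets are not compared.

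Endocrine cells of the islet each make mainly a single peptide hormone. Insulin (Ins1 and Ins2 in the mouse) and amylin (Iapp) come from beta cells, glucagon (Gcg) from alpha cells, somatostatin (Sst) from delta cells and pancreatic polypeptide (Ppy) from PP cells. In the gut, scattered enteroendocrine cells make peptide YY (Pyy), glucagon-like peptides cut from the Gcg product, and somatostatin. Both kinds of cell pack their peptides into dense granules with the chromogranins Chga and Chgb, and both need transcription factors such as Neurod1 to form. The liver and the ventral pancreas bud from neighbouring parts of the foregut, but making these islet and gut hormones is not a known function of hepatocytes.

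The mouse carries a pair of insulin genes whose coding sequences are closely alike, so their sequences bear on how far the values of Ins1 and Ins2 can be read apart. In GENCODE M21 (GRCm38, that is mm10), Ins1 occupies the plus strand of chromosome 19 from 52264297 to 52265476 and Ins2 the minus strand of chromosome 7 from 142678656 to 142743381. Over 327 aligned coding bases, stop codons included, 302 were identical (92.4%). The last 113 coding bases of each gene are printed 5′ to 3′ from the GENCODE transcripts, with the 7 positions that differ in capitals.
Ins1: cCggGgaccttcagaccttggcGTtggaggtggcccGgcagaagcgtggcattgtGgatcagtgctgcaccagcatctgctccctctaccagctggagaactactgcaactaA
Ins2: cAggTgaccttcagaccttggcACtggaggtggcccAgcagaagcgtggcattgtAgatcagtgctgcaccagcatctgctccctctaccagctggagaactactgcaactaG

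The longest run shared by both coding sequences was 56 bases, and it lies within these printed ends. Of the 1013 different windows of 50 bases in the Ins1 transcript, 7 (0.7%) also occurred in an Ins2 transcript. Reads from most of Ins1 could therefore be told from Ins2 at that length. The read length is not given in the sources used here.

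The peptide hormones were near the lower limit of what was measured. Each value is the authors' average log2 CPM (CPM are counts scaled to library size), which includes a small constant, the prior count, added to every gene. Genes without reads share the lowest value, -2.71, and the values just above it rise in steps of 1 read. The steps were used to turn each value into an estimated number of reads summed over all 12 livers. Of the 4524 rows estimated at 1 to 12 reads, 99.4% lay within 0.1 of a whole read, against 74.4% of the 2292 rows at 13 to 40 reads. Pyy (38.57) and Ins1 (27.68) did not lie within 0.1 of a whole read, so their numbers, like those of higher genes, are approximate. On this scale 1 read was worth 0.00635 CPM.

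Pyy, the gut satiety peptide, had the highest number of reads among the 7 peptide hormones, about 39 in 12 livers (95% Poisson interval 27.7 to 53.3, counting error only), at an average log2 CPM of -1.33. Ins1 had about 28 reads (18.6 to 40.5) at -1.61. Neither number amounts to more than 3.25 reads per liver on average, and how the reads fall over the livers is not known here. Gcg and Sst, the paracrine counterparts of insulin in the islet, were each estimated at 15 reads (8.4 to 24.7), both at -2.01. Iapp, which beta cells release together with insulin, had 12 reads (6.2 to 21.0) at -2.13. Ins2 and Ppy were listed at 0 reads, a count that allows up to 3 reads per gene, or 0.0190 CPM. Together the 7 peptide hormones had 109 reads.

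The granins had more reads than any peptide hormone and Neurod1 fewer than the 5 hormones with reads. Chga, which helps to form hormone granules and is also made in neurons and adrenal medulla, had about 807 reads (752.3 to 864.7) at an average log2 CPM of 2.40. Chgb, its partner in the granule, had about 187 reads (161.2 to 215.8) at 0.42. These were the 2 members above 1 CPM. The granins held 89.5% of the 1111 reads of all members, or 9.12 reads for each read of a peptide hormone. Neurod1, which activates insulin transcription, had 8 reads (3.5 to 15.8) at -2.30. In GENCODE M21, 201 exonic bases of Neurod1 also lie in exons of Cerkl on the same strand and 154 in exons of the noncoding gene Gm26755 on the opposite strand, so part of this small number is uncertain. No exonic base of the other 9 members lies in an exon of another gene, though Iapp overlaps the span of Slco1a5 on the opposite strand.

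Longer transcripts yield more reads, so the members were ordered per kilobase (kb) of their longest annotated transcript. Chga came first with 429 reads per kb (400 to 459, all libraries summed). Pyy followed with 70.3 reads per kb (50 to 96.1) and Chgb with 68.2 (58.8 to 78.8), and the intervals of these neighbours overlapped. Only 11.1% of Pyy's exonic bases, against 100% of Chgb's, lie in a single annotated transcript, a share with which levels in this table moved (values further on), and its part in this pair of values was not tested. Next were Ins1 with 26.4 reads per kb (17.5 to 38.1), Sst with 20.8 (11.6 to 34.3), Iapp with 14.3 (7.39 to 25) and Gcg with 13.8 (7.72 to 22.7). The intervals of these 4 hormones overlapped, so their order was not resolved, and all 4 lay below the interval of Pyy. Per kb of coding sequence instead, a length chosen after seeing the data, Ins1 had 86.4 reads (57.4 to 125) and overlapped both Pyy at 130 (92.4 to 178) and Chgb at 92.1 (79.3 to 106), but no longer Gcg at 27.8 (15.5 to 45.8). Neurod1 was lowest of the genes with reads, at 2.93 reads per kb (1.27 to 5.78). The 3 reads that a count of 0 allows correspond to 3.27 reads per kb for Ins2, below the interval of Ins1, and to 6.00 for Ppy. These intervals hold counting error only, since the spread between livers is not known.

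**Figure D1:**
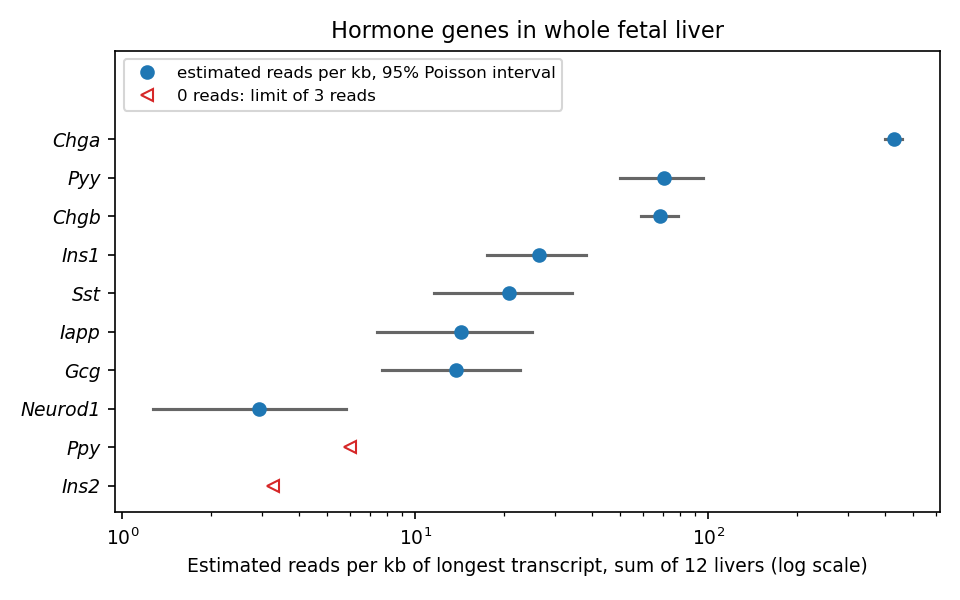
Estimated reads per kb of the longest transcript, summed over 12 livers (log scale), for each of the 10 genes. Blue points are estimates, grey lines their 95% Poisson intervals, and open red triangles the limit of 3 reads for genes at 0. Chga stands at 429, Pyy and Chgb at about 70, and Ins2 and Ppy have no reads.

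Against the whole table, 2 of the 10 members and 33.1% of all rows lay above 1 CPM, and 2 of the 10 and 36.1% of all rows were at the lowest value. The median average log2 CPM was -2.01 over the members and -2.17 over all rows. Chga stood at percentile 66.1 of the 19652 rows with reads and Chgb at 51.8. The peptide hormones with reads lay between percentile 22.3 (Iapp) and 34.1 (Pyy), and Neurod1 at 18.8. Per kb the same positions were 67.0 for Chga, 48.5 for Chgb, 48.7 for Pyy, 37.6 for Ins1, 30.6 for Iapp and 15.7 for Neurod1.

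Ins2 and Ppy should not be read as silent from their zeros alone, because some genes that nearly every cell uses, named here after their values were seen, also had next to no reads. Ppia, the folding enzyme cyclophilin A, had 2 reads and Cox4i1, a subunit of cytochrome c oxidase, had 22, while Hprt had 46973 and Rplp0 322287. Alas2, the heme synthesis enzyme of red cell precursors, had 87 reads in a liver sample whose hemoglobin gene Hba-a2 had an average log2 CPM of 15.60. Levels moved with the share of a gene's exonic bases that lie in exactly 1 of its annotated transcripts. Among protein-coding genes with 2 or more transcripts, the median average log2 CPM was -2.71 where that share was 10% or less (1588 genes), -1.47 from 10 to 30% (3403 genes), -0.13 from 30 to 60% (5361 genes) and 2.17 above 60% (5227 genes). Of the first class 50.6% were at the lowest value, against 14.2% of the last. Genes with 1 transcript had a median of -1.98 (3115 genes). Single genes departed from these medians. Ppia (share 55.0%, log2 CPM -2.60) and Cox4i1 (51.9%, -1.77) lay below the -0.13 of their class, while Rplp0 of the same class lay above it. Actb, with a share of 24.0%, had 406702 reads, and the hepatocyte gene Apob, with 0.431%, had 456740. Alas2 had a share of 21.3%. The part of the share in the levels of these single genes was not tested.

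Ppy falls in the first class, with 13 of its 500 exonic bases (2.60%) in a single transcript. Ins2, with 9 annotated transcripts, has 59.1% of its bases in a single transcript, the same share as Gcg. Ins1 has 1 transcript. Pyy, with 4 transcripts, has 70 of 631 bases (11.1%) in a single transcript and yet had the most reads of the hormones. Iapp had 83.7% and Chga 80.9%, while Sst, Chgb and Neurod1 have 1 transcript each. The part of this overlap in the zeros of Ins2 and Ppy, or in the low level of Pyy, was not tested, and the annotation release that the authors used is not given in the sources used here.

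**Figure D2:**
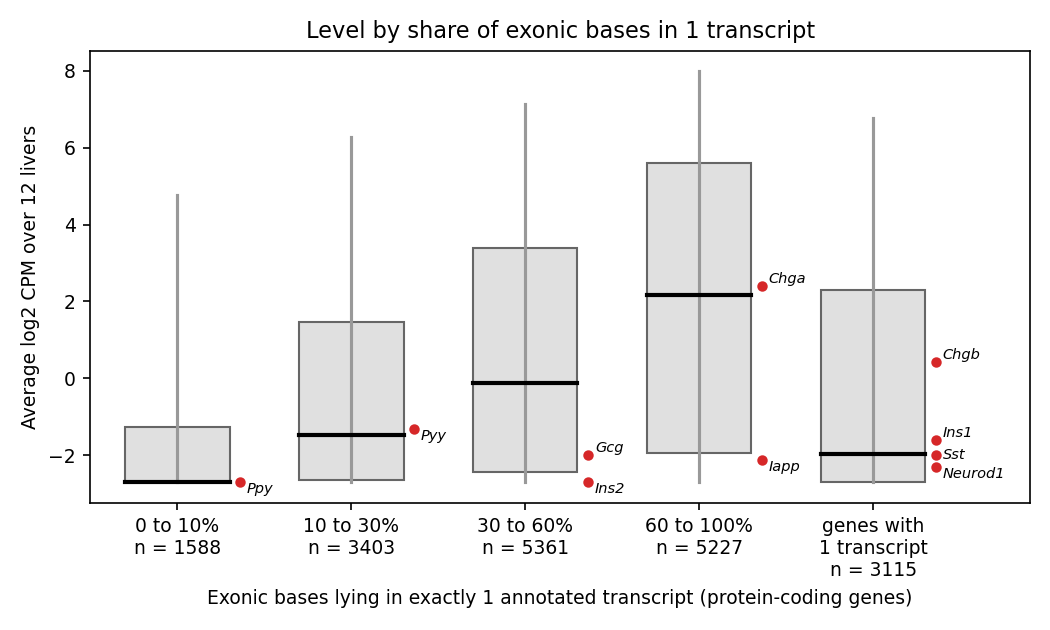
Average log2 CPM over 12 livers of protein-coding genes, by the share of exonic bases lying in exactly 1 annotated transcript. Boxes span the middle quartiles, black bars are medians, and grey lines run from the 5th to the 95th percentile. Red points are the 10 members. The median rises from -2.71 to 2.17 over the 4 classes of genes with 2 or more transcripts, and Ppy lies in the lowest class.

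Ppy and Pyy are neighbours on chromosome 11 of GRCm38, both on the minus strand. Ppy runs from 102099930 to 102101319 and Pyy from 102106676 to 102107832, with 5356 bases between them. They belong to the neuropeptide Y family, but over 290 aligned coding bases 163 (56.2%) were identical, their longest shared run was 8 bases, and no window of 50 bases was shared. So of this adjacent pair Pyy had about 39 reads and Ppy was listed at 0. The other members lie apart: Gcg on chromosome 2 from 62474530 to 62483650, Neurod1 on chromosome 2 from 79452521 to 79456751 and Chgb on chromosome 2 from 132781278 to 132795079. Iapp lies on chromosome 6 from 142298423 to 142303961, Chga on chromosome 12 from 102554969 to 102565028 and Sst on chromosome 16 from 23889573 to 23890958.

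The 14 other peptide hormones had a median average log2 CPM of -2.32, against -2.17 over all rows. Of these 14, 11 had reads and 1 was above 1 CPM. As a reference for this and the following lists, 33.1% of all rows lay above 1 CPM and 36.1% at the lowest value. Read numbers in these lists are totals over 12 livers and are not per length. As with Ins2 and Ppy, a gene listed at 0 in them should not be read as silent from that alone. The gene above 1 CPM was Adm (787 reads, log2 CPM 2.36), which encodes the vasodilator adrenomedullin and is made by many cell types. Secretin (Sct) had 36 reads, ghrelin (Ghrl) 14, neurotensin (Nts) 15, the incretin Gip 5 and gastrin (Gast) 3. Cholecystokinin (Cck) was listed at 0. Apart from Adm, no gene of this list exceeded the 39 reads of Pyy.

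The machinery that turns prohormones into hormones was measured alongside them. Of 13 genes for granule proteins and prohormone processing, 11 had reads and 2 lay above 1 CPM. Cpe, a carboxypeptidase that trims prohormones, had 1744 reads (3.49) and Syp, a membrane protein of small secretory vesicles, had 314 (1.10, both as average log2 CPM). The prohormone convertases Pcsk2 and Pcsk1, both made in islet cells, had 33 and 5 reads. Pcsk1n had 34 reads, Scg5 32 and Vgf 33. Scg2 and Scg3 were listed at 0.

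Among 15 endocrine transcription factors, 11 had reads. Pdx1, needed for the pancreas to form, had 24 reads, Nkx6-1 16, Neurog3 9, Nkx2-2 8 and Isl1 5. Pax4, Pax6 and Rfx6 were among those listed at 0. Of 6 genes for glucose sensing in beta cells, Slc2a2, a glucose transporter that hepatocytes also make, had 8433 reads (log2 CPM 5.75), Kcnj11 11 and Abcc8 5, and G6pc2 was listed at 0.

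Of 18 receptors and receptor subunits for these hormones, 13 had reads. Above 1 CPM were Ramp1 (1542 reads, log2 CPM 3.31), Glp2r (786 reads, 2.36), Sstr2 (283 reads, 0.96) and Gcgr (147 reads, 0.12). Gcgr, the glucagon receptor of hepatocytes, lay at 0.933 CPM with the prior subtracted. Ramp1 is a subunit of amylin receptors and alone does not show such a receptor. Calcr and Ramp3, also in this list, were listed at 0, with 3.48% and 14.1% of their exonic bases in 1 transcript. The insulin receptor Insr had 18 reads, with 81.6% of its exonic bases in 1 transcript. Glp1r had 2 reads, and the peptide YY receptor Npy2r was listed at 0, with 1.71% of its exonic bases in 1 transcript. Npy4r, the receptor of pancreatic polypeptide, stands in the table under its older symbol Ppyr1 and had 15 reads.

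The tissue carried the markers its label names. Of 8 hepatocyte markers, 7 lay above 1 CPM (median average log2 CPM 11.91, Alb highest at 15.95), and so did 6 of the 7 erythroid markers found (median 11.10). Markers of tissues that make the hormones were also measured in the same livers. Of 16 pancreatic acinar genes, 14 had reads and 8 lay above 1 CPM, with a median average log2 CPM of -0.30. Pnliprp1 had 22051 reads, Cela1 2136, Ctrb1 1946 and Cpa1 1243, whereas Cela3b had 24, Cela2a 13 and Pnlip, the main pancreatic lipase, 2, and Amy2a5 and Gp2 were listed at 0. The 29669 acinar reads set against the 109 reads of the peptide hormones are mostly those of Pnliprp1. All 10 intestinal epithelial genes had reads and 4 were above 1 CPM (median -0.26), led by Fabp1, a fatty acid binding protein that hepatocytes also make, with 39606. The others above 1 CPM were Tff3 with 3583 reads, Fabp2 with 2408 and Vil1 with 612. The intestinal transcription factor Cdx2 had 88 reads and Cdx1 29.

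Of 5 duct genes all had reads and 2 lay above 1 CPM (Krt19, 934 reads, and Sox9, 442). These are also genes of bile ducts. Of 6 stomach genes 5 had reads and 1, Barx1, lay above 1 CPM with 197 reads. Of 9 genes of peripheral neurons and neural crest, cells that also make granins, 8 had reads. The 2 above 1 CPM were Tubb3 with 329 reads and Stmn2 with 152, the latter at 0.965 CPM with the prior subtracted. Dbh had 20 reads and Th 15. The part of cells of these other tissues in the reads of the hormone genes was not tested. In whole tissue, fewer cells of a type and less RNA per cell cannot be told apart.

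**Figure D3:**
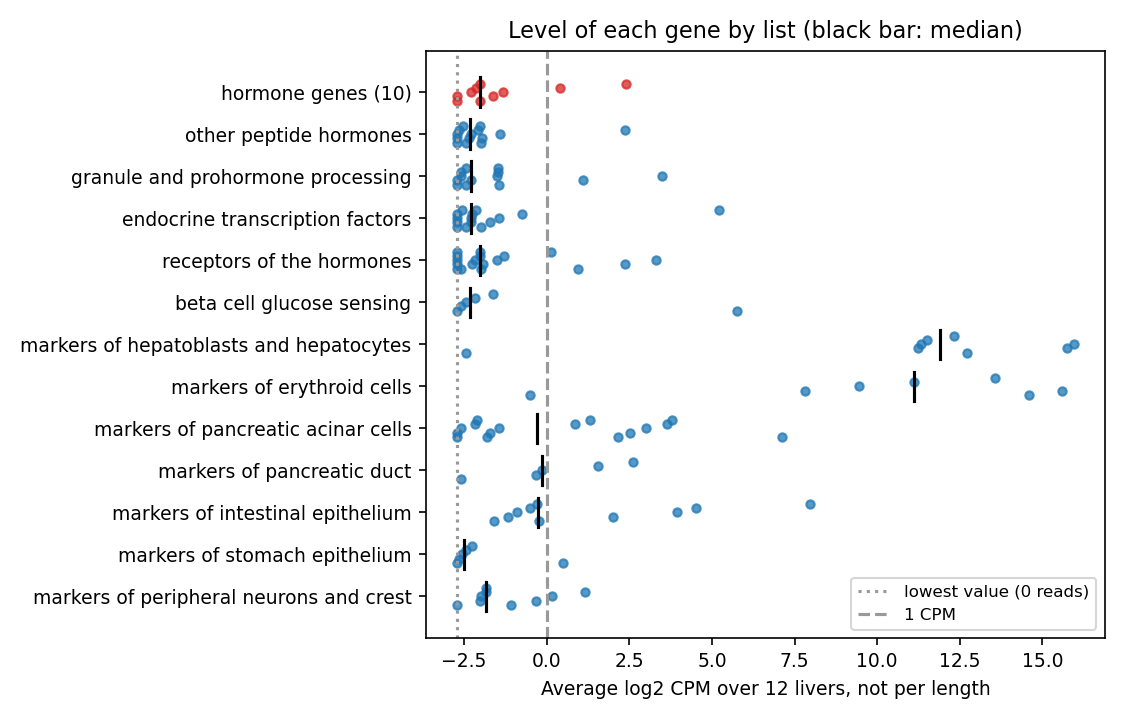
Average log2 CPM over 12 livers (not per length) of every gene in the member list and the 12 other lists. Points are genes, black bars medians, the dotted line is the lowest value of the table and the dashed line 1 CPM. Medians of the endocrine lists lie between -2.32 and -2.01, against -2.17 over all rows and 11.91 for hepatocyte markers.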

How the data were processed

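Total RNA of 12 whole fetal livers was polyA-selected (TruSeq RNA v2) and sequenced on an Illumina HiSeq instrument. Per the paper's methods, the authors used Subread 1.3.6-p1 for alignment (genome mm10), biomaRt for gene annotation and edgeR for the comparison of diets. The labels also name cutadapt 1.2.1. The read counter, the annotation release and the version of the comparison tool are not given in the sources used here. The deposited table gives an average log2 CPM per gene over all livers, the only measurement used. Its other columns hold the authors' comparison (log2 and signed fold changes, p-values and adjusted p-values for 2 dispersions) and were not used. Values of single livers were not analysed here, and no test was run.

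The lowest value was taken as the prior count alone (assumed to be 2 per library), which gave an effective total of 157557021 reads over the 12 livers, on average 13129752 per liver after normalization. A gene's reads followed by scaling and subtracting the prior. Intervals are exact 95% Poisson intervals of the rounded reads. The limit of 3 reads for a count of 0 is a fixed upper bound, not computed as those intervals were. Both cover counting error only. PCR copies are not told apart. GENCODE M21 (GRCm38, identical to mm10) gave positions, lengths and transcripts, and 21025 symbols matched a single gene in it. RefSeq synonyms matched Npy4r. Hba-a1 and Hbb-b2 were not matched. Named genes were all members and, of each of 12 other lists, the highest, those at the lowest value and some of the first 8 as written, except items not reported here. Syp, Npy4r and Tff3, and the widely used genes, were named after their values were seen. The members and lists were chosen with earlier results of these data known. Software was Python 3.11.15, numpy 2.4.6, pandas 2.3.3, scipy 1.17.1, Biopython 1.88 and matplotlib 3.10.9.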

Additional observations from a re-analysis of the deposited data

How the results depend on the processing

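Estimated reads moved by at most 0.067% when the prior and the total were taken from the spacing of the lowest values or from genes with a single read. The spacing gave 24.01 prior reads over 12 libraries, against 24 assumed. Requiring at least 12 reads left 7 members with reads instead of 8, and subtracting the prior left 2 above 1 CPM. The median percentile of the members with reads was 27.9, and it was 52.0 among all rows with the members at the lowest value included and 36.3 per kb. Over the union of exons the reads per kb stayed inside the counting interval for 7 of 8 members, Chga being the exception at 293, and Pyy (61.8) fell below Chgb (68.2). With coding lengths, a choice made after seeing the data, all 8 lay outside it, Ins1 moving from 26.4 to 86.4 and Pyy from 70.3 to 130, and the intervals of Ins1 (57.4 to 125) and Pyy (92.4 to 178) overlapped, which they did not over the longest transcript or the union of exons. The planned use of a protein table for coding length was not run, as no such table was used here. No paired analysis was possible because the values used are averages over all livers of both diets. The 5 peptide hormones with reads rest on 12 to 39 reads each over 12 livers, so their counting intervals are wide, and because only an average was used their spread between livers is not known.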
